A study of Mus musculus with 8 samples.

Results

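The genes Gucy2e, Zfyve28, Dnm1, Ltk, Fbxo2, Insrr, Wnt10b, Tspan2, Gpr162 and Atcay are described as a set that was chosen by RNA level in these same libraries: near 0 in control T cells and several CPM (counts scaled to library size) or more in Carm1-edited T cells. They are 10 of the 49315 genes counted in each library. That contrast chose them, so their levels in these libraries are a description and carry no test. The cells were OT-I CD8 T cells, mouse T cells with a transgenic receptor for an ovalbumin peptide, taken as naive cells from spleen and inguinal lymph nodes and kept in medium with interleukin-7 at 2.5 ng/ml and interleukin-15 at 50 ng/ml. Cas9 was delivered by nucleofection with a guide RNA against the bacterial gene LacZ, which gave the group Control KO (4 libraries, also called WT in the labels), or against Carm1, which gave the group Carm1 KO (4 libraries). Both groups were cultured for 7 days after editing and both carry the OT-I receptor. The labels call the 4 libraries of a group technical replicates and do not say how many cultures or animals they came from. All spreads and p-values below therefore measure the spread between these libraries, which may be technical, and an effect of the edit and of the preparation of each cell pool cannot be told apart. The series text also speaks of co-culture with B16F10 melanoma cells that express ovalbumin, a step that the sample protocols do not describe.

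Carm1 encodes an arginine methyltransferase that methylates histones and other nuclear proteins and acts as a coactivator of transcription. The 10 genes form no single pathway. They are a set of receptors and signalling or trafficking proteins known mainly from the brain, the retina, the kidney or developing tissue, and most are not used as markers of CD8 T cells. Ltk is the exception by name, as leukocyte tyrosine kinase was first described in blood cells.

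Library depth was 38768760 to 41439998 counts for Control KO and 37556330 to 39988442 for Carm1 KO, so that 3 counts corresponded to between 0.0718 and 0.0819 CPM. CPM here are scaled with TMM factors, which adjust for differences in RNA composition between libraries. Carm1 itself, on chromosome 9, fell from 95.9 ± 1.04 to 32.8 ± 0.493 CPM (SD, n = 4 each; edgeR quasi-likelihood test, adjusted p = 1.61e-37), with all Carm1 KO libraries below all Control KO libraries. A fall of this kind was common, since 15.2% of the 14970 genes tested were called with a level at least 2-fold lower, and a count over the whole gene need not show an edit. The transcriptomes differed widely. Of the genes tested, 44.5% were called higher and 43.2% lower in Carm1 KO, and 20.5% were called and at least 2-fold higher.

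Sequence upstream of 5 of the genes is shown first, because it spans the range of CpG ratio among them and includes the stretch that Fbxo2 shares with a neighbour that also rose. RefSeq promoter windows of 300 bases (250 before and 50 after the start, build GRCm38.p6, the assembly of mm10) matched 7 of the 10 genes, with 2 windows for Tspan2. Printed below, 5′ to 3′ on the gene's strand, are only the parts of these windows that lie outside annotated exons. Capitals mark a match to GGGCGG (GC box), CCGGAAG (ETS) or TGTGGT (RUNX) on either strand.
Zfyve28, chr5:34288450-34288574, minus strand: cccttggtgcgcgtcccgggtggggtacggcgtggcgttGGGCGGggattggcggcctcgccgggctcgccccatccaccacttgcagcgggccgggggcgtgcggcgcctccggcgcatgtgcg
Dnm1, chr2:32353339-32353579, minus strand: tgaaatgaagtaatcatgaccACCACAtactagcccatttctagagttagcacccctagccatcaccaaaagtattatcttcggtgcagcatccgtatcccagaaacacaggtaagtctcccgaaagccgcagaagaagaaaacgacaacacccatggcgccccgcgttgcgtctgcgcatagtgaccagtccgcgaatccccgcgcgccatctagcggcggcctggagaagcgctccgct
Fbxo2, chr4:148160483-148160620, plus strand: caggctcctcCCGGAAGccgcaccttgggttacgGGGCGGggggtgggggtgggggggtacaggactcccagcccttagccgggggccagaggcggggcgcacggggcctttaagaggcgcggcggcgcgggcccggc
Wnt10b, chr15:98778151-98778400, minus strand: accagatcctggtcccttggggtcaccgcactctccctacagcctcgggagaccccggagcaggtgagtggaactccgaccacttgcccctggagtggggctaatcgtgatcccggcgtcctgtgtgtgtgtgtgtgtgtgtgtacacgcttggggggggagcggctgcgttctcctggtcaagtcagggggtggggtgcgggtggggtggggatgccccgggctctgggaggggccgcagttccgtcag
Gucy2e, chr11:69237037-69237272, minus strand: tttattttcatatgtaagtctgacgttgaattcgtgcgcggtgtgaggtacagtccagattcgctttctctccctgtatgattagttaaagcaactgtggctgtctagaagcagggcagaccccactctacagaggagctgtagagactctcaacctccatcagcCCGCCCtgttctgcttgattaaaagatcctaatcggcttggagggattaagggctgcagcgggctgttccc

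The printed stretches held between 8 CpG dinucleotides (Gucy2e) and 19 (Zfyve28 and Dnm1). Over the full windows, the ratio of observed to expected CpG was 1.08 for both Dnm1 and Zfyve28, with 28 and 48 CpG. The other windows lay between 0.503 for Gucy2e and 0.713 for one of the Tspan2 windows. All 8 windows were above the median of 0.383 over all 32817 RefSeq windows. The GC box GGGCGG was in 5 of the 8 windows (those of Dnm1, Fbxo2, Gucy2e, Ltk and Zfyve28) and in 35.6% of all windows. CCGGAAG was in the windows of Fbxo2, Ltk and Zfyve28, and in 8.86% of all windows. CAGCTG, bound by E proteins, was in those of Ltk and Zfyve28 and in 16.3% of all windows, and TGTGGT in that of Dnm1 and 1 of Tspan2 and in 16.8%. The MYB motif TAACNG was in both Tspan2 windows and in 23.3% of all windows. No window of these genes held CACGTG (E-box), CTTTGA (TCF and LEF), TGANTCA (AP-1), TATAAA, or either arm of the element of the neuronal repressor REST, TTCAGCACC or GGACAGCGC, which occur in 7.15%, 16.0009%, 7.81%, 13.6%, 0.372% and 0.402% of all windows. Both strands were searched for each motif, matches to different motifs were counted separately where they overlapped, and a match is a run of letters, not a measured binding site.

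The set is made up of receptors (Insrr, Ltk, Gucy2e and Gpr162), a secreted ligand with a membrane organiser (Wnt10b and Tspan2), proteins of membrane traffic (Dnm1, Zfyve28 and Atcay) and a subunit of a ubiquitin ligase (Fbxo2). Together the 10 genes held 211 counts in the 4 Control KO libraries and 22886 in the 4 Carm1 KO libraries. Their summed level was 1.17 to 1.64 CPM in each Control KO library and 135 to 145 CPM in each Carm1 KO library. In bulk RNA, fewer expressing cells and less RNA per expressing cell cannot be told apart. Every gene had at least 1 count in Control KO, and whether these few counts came from RNA of the T cells was not tested. Gucy2e had a count in 1 of the 4 Control KO libraries, Zfyve28 in 2 and Gpr162 in 3, and the other 7 genes had counts in all 4.

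**Figure D1:**
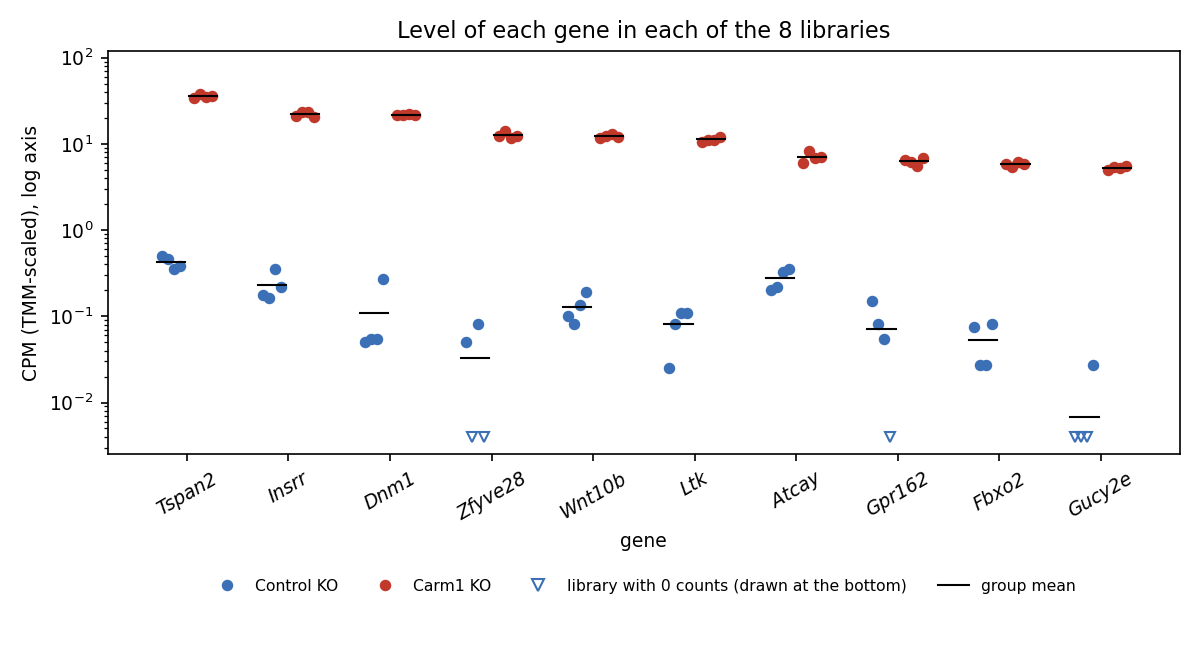
Level of each of the 10 genes in CPM (TMM-scaled, log axis), with 1 point per library, 4 Control KO libraries in blue and 4 Carm1 KO libraries in red. Black bars are group means and open triangles are libraries with 0 counts; every Carm1 KO point lies above 4.9 CPM and every Control KO point below 0.51 CPM.

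Insrr encodes the insulin receptor-related receptor, a receptor tyrosine kinase known from the kidney as a sensor of alkaline pH outside the cell. It lies on chromosome 3 (87796951 to 87816101, plus strand, mm10) and is annotated as protein coding with 23 merged exons. Its counts were 7, 6, 13 and 8 in Control KO replicates 1 to 4 and 877, 960, 938 and 826 in Carm1 KO replicates 1 to 4. The groups did not overlap, with means of 0.228 ± 0.0865 and 22.1 ± 1.41 CPM. The summed counts, on TMM-scaled library sizes, gave a ratio of 97.1 with a 95% exact Clopper-Pearson interval of 69.4 to 140, and such intervals cover counting error only.

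Ltk encodes leukocyte tyrosine kinase, a receptor of the ALK family that binds the ALKAL ligands. The gene is on chromosome 2 (119751320 to 119760431, minus strand, 16 exons). Counts of 1, 3, 4 and 4 in Control KO stood against 442, 462, 448 and 481 in Carm1 KO. The means were 0.0812 ± 0.0394 and 11.2 ± 0.615 CPM, and the ratio was 140 (95% interval 80.0 to 272).

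Gucy2e encodes a membrane guanylate cyclase that makes cyclic GMP in photoreceptors. The gene, on chromosome 11 (69218117 to 69237036, minus strand, 19 merged exons), had the fewest counts of the 10 in both groups, with 0, 0, 0 and 1 counts in Control KO and 208, 227, 207 and 221 in Carm1 KO. The Carm1 KO mean was 5.29 ± 0.260 CPM. The ratio of 791 rests on the single control count, and its interval of 142 to 31287 shows how little that count fixes it. Without Control KO replicate 4, which held that count, Gucy2e was at least 199-fold higher in Carm1 KO, against 3 counts over the group.

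Gpr162 encodes an orphan receptor of the rhodopsin family and lies in the gene-dense region beside Cd4 on chromosome 6 (124858444 to 124863983, minus strand, 4 exons). Its counts were 6, 3, 2 and 0 in Control KO and 269, 253, 224 and 273 in Carm1 KO. Control KO replicate 1 was the highest control library, yet far below the lowest Carm1 KO library. The means were 0.0720 ± 0.0632 and 6.24 ± 0.528 CPM, and the ratio was 84.9 (95% interval 47.3 to 171). Without Control KO replicate 1 it was 138 (58.8 to 425).

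Wnt10b encodes a secreted Wnt ligand known for promoting bone formation and holding back fat cell formation. Its locus is on chromosome 15 (98771753 to 98778150, minus strand, 6 exons). The control libraries held 4, 3, 5 and 7 counts and the Carm1 KO libraries 492, 512, 526 and 476. The means were 0.127 ± 0.0480 and 12.3 ± 0.616 CPM, and the ratio was 96.8 (95% interval 61.8 to 161).

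Tspan2 encodes a tetraspanin, a membrane protein with 4 transmembrane segments that gathers partner proteins, known from oligodendrocytes. On chromosome 3 (102734529 to 102801513, plus strand, 10 merged exons), it had the most counts of the 10 genes in both groups. Counts were 20, 17, 13 and 14 in Control KO and 1429, 1572, 1413 and 1425 in Carm1 KO. The means were 0.426 ± 0.0710 and 35.8 ± 1.51 CPM, a ratio of 83.6 (95% interval 65.4 to 109). The antisense gene Tspan2os shares 88 exon bases with Tspan2 and held 46 counts in the 4 Carm1 KO libraries together. The library kit does not mark strand, so reads from those bases cannot be assigned to one gene or the other.

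Dnm1 encodes dynamin 1, the GTPase that pinches off clathrin-coated vesicles at synapses. It lies on chromosome 2 (32308471 to 32353338, minus strand, 25 merged exons). Control KO replicates 1 to 3 held 2 counts each and replicate 4 held 10, while the Carm1 KO libraries held 905, 899, 886 and 872. The means were 0.108 ± 0.110 and 21.8 ± 0.246 CPM, and the ratio was 204 (95% interval 126 to 357). Without Control KO replicate 4 it was 411 (189 to 1121). The 4 Carm1 KO libraries were closer to each other than for any of the other 9 genes.

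Zfyve28 encodes a FYVE-domain protein of endosomes that dampens signalling by the epidermal growth factor receptor. The gene spans 34194893 to 34288449 on chromosome 5 (minus strand, 17 merged exons). Counts were 2, 0, 3 and 0 in Control KO and 519, 583, 472 and 490 in Carm1 KO, with means of 0.0330 ± 0.0401 and 12.6 ± 0.962 CPM. The ratio was 378 (95% interval 162 to 1167), and without Control KO replicate 3 it was 713 (197 to 5894). A transcript annotated inside an intron of Zfyve28 on the same strand, Gm15513, held 1 count in all of Control KO and stood at 2.68, 2.84, 3.30 and 3.18 CPM in Carm1 KO replicates 1 to 4. The antisense gene Gm42848, which shares 102 exon bases with Zfyve28, held 0 and 44 counts.

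Atcay encodes caytaxin, a neuronal BCH-domain protein whose loss causes ataxia in mice and humans. Atcay is on chromosome 10 (81204508 to 81230833, minus strand, 13 merged exons). Counts were 8, 8, 12 and 13 in Control KO and 249, 348, 274 and 277 in Carm1 KO, where replicate 2 was the highest. The means were 0.275 ± 0.0763 and 7.03 ± 0.996 CPM, and the ratio of 25.7 (95% interval 18.8 to 36.0) was the lowest of the set. Its antisense partner Atcayos shares 432 exon bases with it. Atcayos was at 0.0507, 0.0272, 0.0814 and 0.109 CPM in Control KO and at 9.09, 9.49, 9.25 and 9.10 CPM in Carm1 KO (log2 fold change 7.04, adjusted p = 5.12e-33 by edgeR). In Carm1 KO, 1508 counts were assigned to Atcayos, and without strand the reads over the shared bases cannot be assigned to either gene.

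Fbxo2 encodes an F-box protein that recognises high-mannose sugars on glycoproteins for ubiquitin transfer, known mainly from neurons. Fbxo2 is on chromosome 4 (148160621 to 148166424, plus strand, 6 exons). Counts were 3, 1, 1 and 3 in Control KO and 241, 227, 249 and 234 in Carm1 KO. The means were 0.0531 ± 0.0300 and 5.83 ± 0.316 CPM, a ratio of 109 (95% interval 55.1 to 253).

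All 10 genes passed the filter on low counts, and they did so through the Carm1 KO libraries, where they are high by choice. All 10 were higher in every Carm1 KO library than in any Control KO library, as were 42.2% of all genes tested. The ratios ran from 25.7 to 791 with a median of 103.

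Levels of different genes were compared per kilobase of annotated exon. The exon length is that annotated for the whole gene, not for the transcripts present, so the order depends on the annotation. Tspan2 led in Carm1 KO with 7.52 ± 0.317 CPM per kb. Wnt10b followed with 5.26 ± 0.264, Fbxo2 with 4.52 ± 0.246, Dnm1 with 4.16 ± 0.0469, Insrr with 3.86 ± 0.247 and Ltk with 3.13 ± 0.171. Below these stood Zfyve28 with 2.19 ± 0.167, Atcay with 1.76 ± 0.249, Gpr162 with 1.63 ± 0.138 and Gucy2e with 0.575 ± 0.0283 CPM per kb. Fbxo2 is above Dnm1 and Insrr in this order although below both by CPM, since its exons cover only 1288 bases against 9197 for Gucy2e. In that order, the libraries of neighbouring genes overlapped between Zfyve28 and Atcay and between Atcay and Gpr162. The other neighbours were apart in all 4 libraries. The median over the 10 genes was 3.49 CPM per kb, against 4.51 over all genes tested.

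Within Carm1 KO, the 10 genes differed in how evenly the 4 libraries shared their counts. A chi-square per degree of freedom, for which counting error alone gives about 1, ran from 0.113 for Dnm1 to 5.88 for Atcay, with a median of 1.58. Insrr was at 3.66, Zfyve28 at 3.01 and Tspan2 at 2.64. Over the 4734 tested genes with as many counts (863 to 5839 in Carm1 KO), the median was 1.24 and the 90th percentile was 3.53. Atcay and Insrr thus exceeded that percentile, and Carm1 KO replicate 2 was the highest library for Atcay, Zfyve28 and Tspan2.

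**Figure D2:**
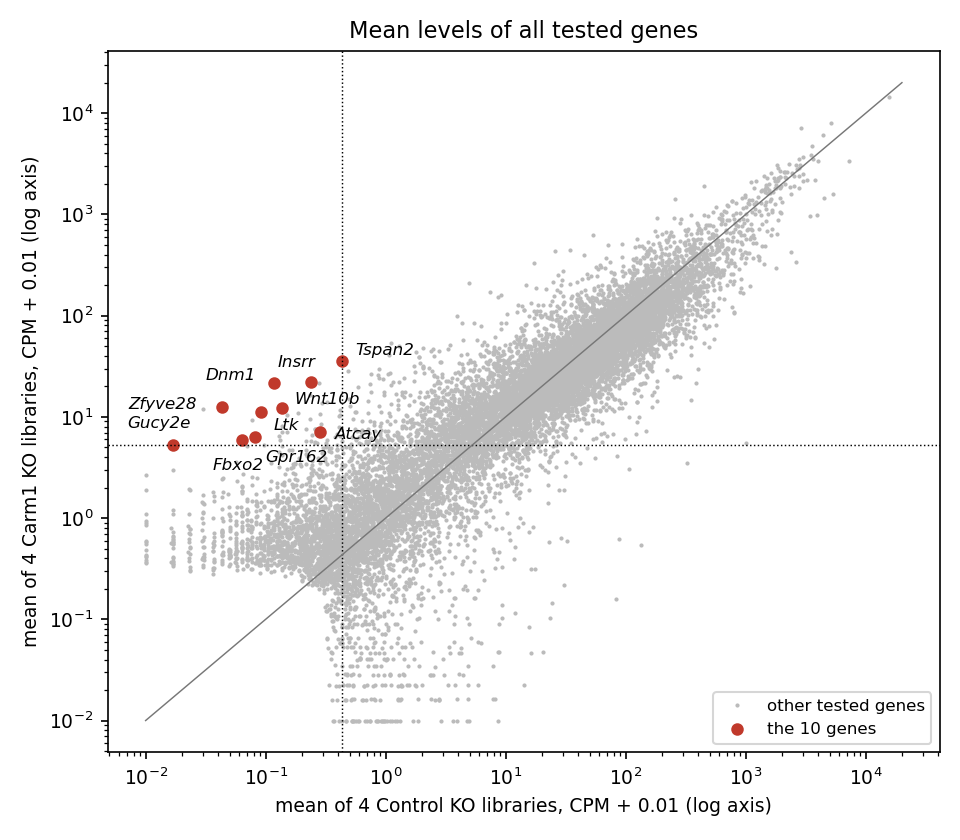
Mean CPM in the 4 Control KO libraries (x axis) against the mean in the 4 Carm1 KO libraries (y axis) for all 14970 tested genes, both plus 0.01 on log axes. The 10 genes (red) lie in the corner bounded by dotted lines at their highest Control KO mean (0.426 CPM) and lowest Carm1 KO mean (5.29 CPM), with 35 other genes; the grey diagonal marks equal levels.

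The 10 genes are part of a larger group with the same pattern. With their own extremes as bounds, at most 0.426 CPM in Control KO and at least 5.29 CPM in Carm1 KO, 45 of the 49315 genes qualified, 37 of them protein coding, so 35 were not among the 10. The mirror pattern with the same bounds was met by 33 genes, 28 of them protein coding. Just outside on the Carm1 KO side were Ltbp4 (0.306 and 5.25 CPM) and Ppfia3 (0.127 and 5.19 CPM). On the control side Capn3 (0.479 and 28.1 CPM), Plxdc1 (0.481 and 15.0 CPM) and Mt2 (0.491 and 12.9 CPM) were just over the bound. By counts alone, 95 genes had 0 counts in all Control KO libraries and at least 3 in each Carm1 KO library, and 112 had the reverse.

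The genes outside the set whose profile over the 8 libraries came closest to its median profile were found by Euclidean distance on log2(CPM + 0.5). Kcnip2, a potassium channel partner, was nearest at a distance of 0.505 (0.140 and 10.4 CPM). Mgat3, a glycosyltransferase that adds the bisecting sugar to N-glycans, followed at 0.518 (0.0200 and 12.0 CPM), then Padi3, a peptidylarginine deiminase of hair follicles, at 0.556 (0.176 and 10.9 CPM). Atcayos was next at 0.659, followed by Ripor3 (0.847), Spred3 (1.06), Cldn10 (1.07), Arhgef25 (1.17) and Hdac11 (1.18). Among the 10 genes themselves the distance ran from 0.219 for Ltk to 3.41 for Tspan2. These genes were found by their pattern in the same libraries, and the distances are a description.

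The genes around each of the 10 were then compared, as their own levels were not used to choose the set. Some are not free of that choice. Atcayos shares exon bases with Atcay and Gm15513 lies in an intron of Zfyve28, so their reads may come from the chosen genes. Gm15513, Hes7 and A230083G16Rik held at most 2 counts in Control KO and passed the filter through Carm1 KO, so they could only rise. Atcayos, Cd4, P3h3, Lrrc23 and Lrrc71 held at most 25 counts over Control KO and likewise passed through Carm1 KO. Kcnab3 and Poln, at 43 and 47 counts over Control KO, passed only with Carm1 KO libraries included. Lcn2, with 4 counts in Carm1 KO, passed through Control KO. Of 124 other genes within 100 kb, 75 were tested, of which 44 rose in Carm1 KO, 25 fell and 6 did not pass (edgeR quasi-likelihood test, adjusted over all 14970 genes). The 44 make 58.7%, beside 44.5% of all genes tested, and 27 (36.0%) rose at least 2-fold, beside 20.5% of all. The neighbours named above as limited by the filter, apart from Lcn2, are all among the 44 and the 27. Part of both shares was thus set by the filter. The shares over all genes tested also include such genes, and no share without them was computed. The median log2 fold change of the 75 neighbours was 0.42, and 0.02 over all genes tested. Upper-quartile scaling shifted the median log2 fold change of all genes by 0.215, and with it 52 neighbours rose and 17 fell, beside 53.5% of all genes tested rising and 34.2% falling. The counts with upper-quartile factors given for lists below are to be read beside these shares. Neighbours of one gene share a region and are not independent of each other.

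The share was uneven between the regions. Around Gpr162, 9 of 13 tested neighbours rose and 4 fell, around Atcay 10 of 15 rose and 4 fell, and all 4 around Gucy2e and 4 of 6 around Zfyve28 rose. These risers include neighbours limited by the filter as described above. They are A230083G16Rik, Lrrc23, P3h3 and Cd4 around Gpr162 and Atcayos around Atcay. Around Gucy2e they are Hes7 and Kcnab3, and around Zfyve28 Gm15513 and Poln. Around Dnm1, 5 of 12 rose, none of them 2-fold, and 4 fell. Around Ltk 2 of 6 rose and 4 fell, and around Insrr 3 rose, with Lrrc71 among them, and 3 fell. Tspan2 had no tested neighbour within 100 kb. Within its span, Tshb on the opposite strand shares no exon base with it and held 1 count in Control KO and 50 in Carm1 KO. The nearest genes outside the span of Tspan2, Gm42682 upstream and Sycp1 downstream, had 2 counts and 1 count in Carm1 KO.

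**Figure D3:**
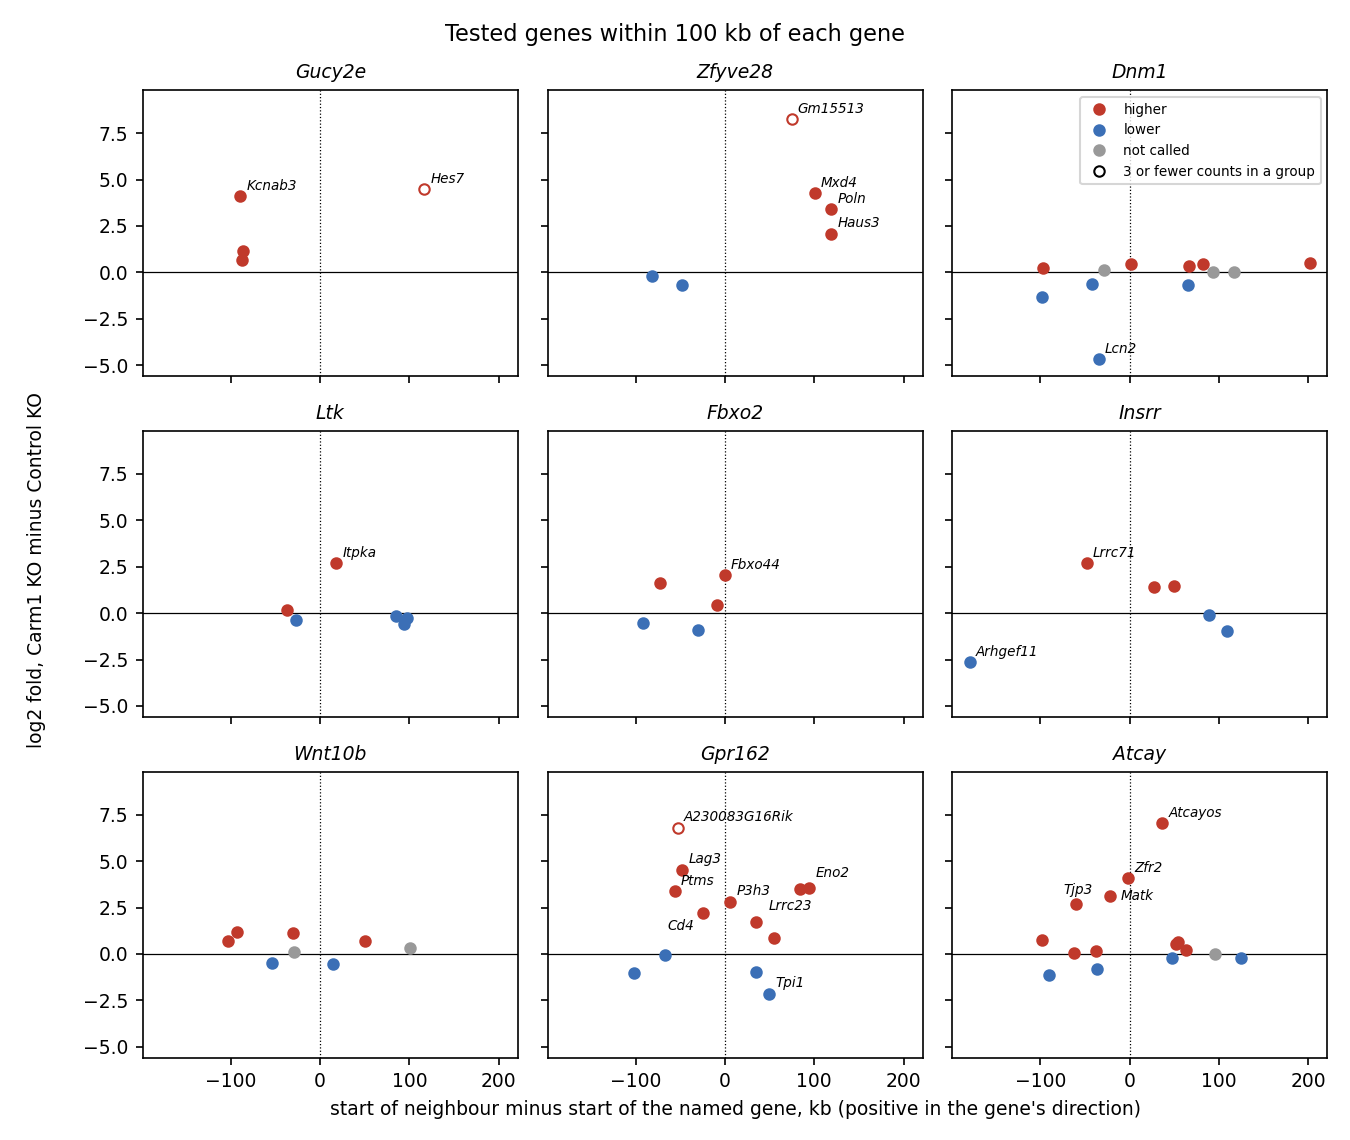
Log2 fold change (Carm1 KO minus Control KO) of the 75 tested genes within 100 kb of each gene, by the distance of their start from its start in kb, with genes that rose in red, fell in blue and did not pass in grey. Open circles have 3 or fewer counts in a group, so their fold change is not fixed by the data. Genes that rose more than 4-fold are named around Gucy2e, Zfyve28, Ltk, Fbxo2, Insrr, Gpr162 and Atcay, and Lcn2 near Dnm1 is the lowest point.

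At the Gpr162 locus the nearest gene upstream is Cd4, the coreceptor of helper T cells, with a gap of 709 bases. Cd4 rose from 0.168 ± 0.0374 to 0.782 ± 0.150 CPM (log2 fold change 2.21, edgeR adjusted p = 1.76e-09) and so stayed low. P3h3, a prolyl hydroxylase of collagen 692 bases downstream, rose from 0.0875 ± 0.0523 to 0.630 ± 0.123 CPM. Lag3, an inhibitory receptor of T cells 40378 bases upstream, was at 8.13, 6.66, 6.62 and 7.92 CPM in Control KO and 172, 171, 171 and 169 CPM in Carm1 KO. Lag3 thus rose 23.2-fold with no overlap between the groups. Ptms, which encodes parathymosin, rose 10.3-fold, and Eno2, the neuronal enolase, rose from 0.621 ± 0.0235 to 7.46 ± 0.433 CPM. In the same region Tpi1, a glycolytic enzyme, fell from 1424 ± 23.6 to 322 ± 6.47 CPM, and Usp5, a deubiquitinase, fell 1.94-fold.

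Zfr2, a zinc finger gene that faces away from Atcay with a gap of 2322 bases, was at 1.44, 1.31, 1.28 and 1.61 CPM in Control KO and at 23.4, 24.3, 25.5 and 23.9 CPM in Carm1 KO. It rose 17.2-fold (log2 fold change 4.10, SE 0.0731, edgeR adjusted p = 2.38e-37). Matk, a kinase that inactivates SRC-family kinases, rose 8.62-fold and Tjp3, a tight junction scaffold, 6.43-fold. Downstream of Atcay, Nmrk2 was not tested and held 1 count in Control KO and 53 in Carm1 KO.

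Downstream of Zfyve28, Mxd4, which encodes a MAX partner that opposes MYC, rose from 17.1 ± 0.579 to 332 ± 3.34 CPM (log2 fold change 4.27, SE 0.0284, edgeR adjusted p = 2.03e-51). Further on, Poln, a DNA polymerase, rose 10.7-fold and Haus3, a spindle protein, 4.24-fold. Upstream, Cfap99 faces away from Zfyve28 across a gap of 151 bases and was not tested, with 4 counts in Control KO and 0 in Carm1 KO.

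Fbxo2 and Fbxo44, a related F-box gene, are also divergent, and the 138 bases between them are those printed above. Fbxo44 was at 2.36, 2.72, 2.96 and 3.14 CPM in Control KO and 11.2, 12.1, 10.4 and 12.2 CPM in Carm1 KO, a 4.12-fold rise without overlap (edgeR adjusted p = 2.34e-25). The related Fbxo6, 8481 bases away, rose 1.34-fold, from 21.5 ± 1.29 to 28.8 ± 0.984 CPM.

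Ltk ends 57 bases from the end of Itpka, a kinase of inositol trisphosphate, which rose from 0.389 ± 0.101 to 2.50 ± 0.268 CPM (6.42-fold). On the other side Rpap1, an RNA polymerase II partner, fell from 48.5 ± 0.650 to 37.7 ± 1.11 CPM. Insrr lies within the span of Pear1, a platelet receptor gene on the opposite strand, with which it shares no exon base. Pear1 rose 2.66-fold, from 19.5 ± 0.434 to 51.9 ± 0.986 CPM, and Sh2d2a, a T cell adaptor 30654 bases downstream, rose 2.75-fold. Arhgef11 fell 6.26-fold at a gap of 58917 bases.

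Wnt10b and Wnt1 lie 11707 bases apart, but Wnt1 held no count in Control KO and 2 in Carm1 KO. On the other side Arf3, a small GTPase, fell from 269 ± 1.42 to 184 ± 3.95 CPM, while Kmt2d, a histone methyltransferase further upstream, rose 2.31-fold. Next to Dnm1, Ciz1, whose span overlaps that of Dnm1 with no shared exon base, rose 1.38-fold, and Golga2, 550 bases downstream, rose 1.25-fold. Further away, Swi5, a partner in DNA recombination, fell 1.61-fold and Slc25a25, a mitochondrial carrier, 2.49-fold. Lcn2, a lipocalin, fell from 0.696 ± 0.185 to 0.0247 ± 0.0354 CPM. Around Gucy2e the nearest genes, Gm23194 and Alox8, were not tested, with 0 counts in both groups for the first and 13 and 55 counts for the second. Kcnab3, a potassium channel subunit 89222 bases upstream, rose 17.1-fold, from 0.288 ± 0.0615 to 4.96 ± 0.114 CPM.

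Relatives and partners of the 10 genes were compared next, from 10 lists of 216 genes. Of these, 130 were tested, 53 rose (40.8%, beside 44.5% of all genes tested), 59 fell and 18 did not pass. At least 2-fold, 28 rose and 23 fell. The median log2 fold change was -0.02, and 20 listed genes had no count in any library. The share that rose was thus near the background. Genes too low to pass the filter in a group were tested through the other group, which largely set their direction. Among the relatives and markers below, Pde6b, Rd3, Dkk3, Grin1 and Ddx4 were that low in Control KO. Fzd1 and Kdr were that low in Carm1 KO.

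**Figure D4:**
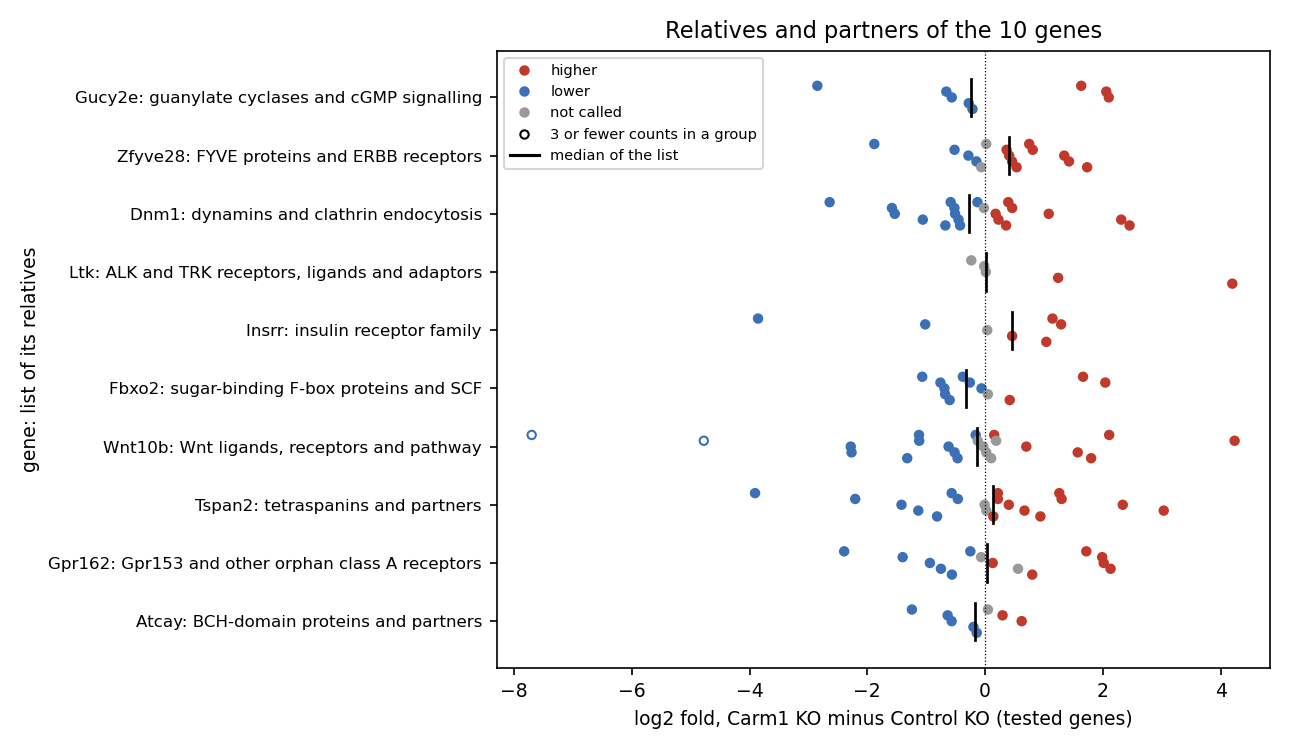
Log2 fold change (Carm1 KO minus Control KO) of the 130 tested relatives, in 1 row per list, with the median as a black bar. Genes that rose are red, genes that fell are blue, genes that did not pass are grey, and open circles had 3 or fewer counts in a group. Medians lie between -0.32 and 0.46, and Ntrk3, Dkk3 and Tspan32 reach the furthest right.

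Among receptors related to Insrr, Insr, the insulin receptor, rose from 17.2 ± 0.762 to 42.2 ± 1.70 CPM (log2 fold change 1.29, SE 0.0406) and Igf1r, the insulin-like growth factor receptor, from 18.3 ± 0.770 to 40.5 ± 1.47 CPM. Of the 7 tested genes 4 rose, 2 fell and 1 did not pass, or 5 and 2 with upper-quartile factors. Sh2b1, an adaptor of these receptors, rose 2.06-fold, whereas Ptpn1, a phosphatase that switches them off, fell 2.02-fold and Sh2b2 fell from 1.19 ± 0.0951 to 0.0797 ± 0.0319 CPM.

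Alk, the closest relative of Ltk, held 2 counts in Control KO and 0 in Carm1 KO, and the ligand genes Alkal1 and Alkal2 held 1 and 0 counts in Control KO and 0 and 3 in Carm1 KO. RNA of the receptor Ltk was thus present with at most 3 counts of either ligand over the 4 libraries of a group. Ntrk3, a neurotrophin receptor of the same list, rose 18.4-fold, from 0.949 ± 0.255 to 17.5 ± 0.509 CPM (edgeR adjusted p = 1.87e-34), and Frs3, an adaptor, rose from 0.830 ± 0.171 to 1.97 ± 0.376 CPM. The adaptors Shc1 and Frs2 did not pass. Of 5 tested genes 2 rose and 3 did not pass, and with upper-quartile factors 4 rose.

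Gucy2f, the other retinal guanylate cyclase, had no count in any library, and Gucy2d had 11 and 32 counts. Of 8 tested genes of cyclic GMP signalling 3 rose and 5 fell, a balance of 3 and 3 with upper-quartile factors or library totals (with library totals, 51.1% of all genes tested rose and 36.5% fell). The risers were Guca1a, which encodes an activator of retinal guanylate cyclases (0.299 ± 0.0856 to 1.26 ± 0.160 CPM), Rd3, a trafficking partner of those cyclases (0.240 ± 0.0845 to 0.751 ± 0.164 CPM), and Pde6b, a photoreceptor phosphodiesterase subunit (0.122 ± 0.0581 to 0.527 ± 0.194 CPM). Of these risers, Rd3 and Pde6b were too low in Control KO to pass the filter there and were tested through Carm1 KO. Gucy1b1, the subunit of the soluble guanylate cyclase that binds nitric oxide, fell 7.20-fold from 3.33 ± 0.121 CPM.

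Gpr153, the closest relative of Gpr162, was not tested, at 0.308 ± 0.123 and 0.0733 ± 0.0603 CPM. Of 14 other orphan or formerly orphan receptors tested, 6 rose and 6 fell, or 7 and 5 with upper-quartile factors. Gpr132, a receptor of activated lymphocytes, rose from 94.0 ± 2.44 to 310 ± 5.93 CPM, and Gpr174, a receptor for lysophosphatidylserine, from 12.8 ± 1.09 to 56.2 ± 1.52 CPM. Gpr55 and Gpr160 rose 4.04-fold and 3.97-fold. Gpr65, an acid-sensing receptor, fell 2.64-fold.

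Of 50 listed genes of the Wnt pathway 22 were tested, with 6 rising, 11 falling and 5 not passing, but 10 rising and 9 falling with upper-quartile factors. Wnt10a, the closest relative of Wnt10b, held 7 counts in Carm1 KO and none in Control KO, while Wnt5b fell from 2.52 ± 0.0844 to 0.521 ± 0.113 CPM. Among receptors, Fzd7 fell from 11.1 ± 0.202 to 2.29 ± 0.219 CPM and Fzd5 2.17-fold, and Fzd1 fell from 99 counts in Control KO to 0. Wls, which carries Wnt proteins to the cell surface, rose from 11.4 ± 0.255 to 39.7 ± 1.26 CPM, and Porcn, which adds the lipid that Wnt proteins need, was not tested at 0.0272 and 0.302 CPM. Rnf43, a ubiquitin ligase that removes Frizzled receptors, rose 2.98-fold while its relative Znrf3 fell 2.18-fold. The nuclear factors Tcf7 and Lef1 rose 4.31-fold and 1.63-fold. Axin2, a common target of the pathway, was at 14.8 ± 0.575 and 15.9 ± 1.16 CPM and did not pass (adjusted p = 0.0595). Dkk3, a member of the Dickkopf family of Wnt inhibitors, rose from 0.0540 ± 0.0389 to 1.07 ± 0.102 CPM.

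Among tetraspanins and their partners 10 of 19 tested genes rose and 7 fell, or 12 and 7 with upper-quartile factors. Tspan32 rose from 6.28 ± 0.280 to 51.5 ± 1.55 CPM (log2 fold change 3.03, SE 0.0458, edgeR adjusted p = 6.94e-40), and Cd81, a partner of many lymphocyte receptors, from 3.57 ± 0.405 to 18.1 ± 0.445 CPM. Tspan13 and Cd9 rose 2.46-fold and 2.40-fold. In the other direction Cd63, a tetraspanin of late endosomes, fell 4.61-fold, Tspan33 fell from 0.683 ± 0.276 to 0.0426 ± 0.0531 CPM, and the tetraspanin partners Ptgfrn and Igsf8 fell 2.67-fold and 2.19-fold.

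Dnm2, the dynamin found in most cell types, rose from 217 ± 3.16 to 278 ± 4.69 CPM. Dnm3 was not tested, at 9 and 39 counts, and Dnm1l, which divides mitochondria, fell from 88.4 ± 2.03 to 55.4 ± 1.60 CPM. Of 20 tested genes of dynamins and clathrin endocytosis 8 rose and 11 fell, or 10 each with upper-quartile factors. Pacsin3 rose 4.97-fold and Synj2 2.12-fold. The clathrin light chain gene Cltb fell 2.99-fold, the adaptor subunit gene Ap2m1 2.08-fold, Pacsin2 fell 2.89-fold and the scaffold gene Itsn1 fell from 3.41 ± 0.294 to 0.543 ± 0.165 CPM.

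Of 15 tested FYVE-protein and ERBB receptor genes 9 rose and 4 fell, or 11 and 2 with upper-quartile factors. Erbb3 rose from 6.34 ± 0.290 to 16.1 ± 0.887 CPM, Cblb, a ubiquitin ligase that restrains T cell activation, from 98.4 ± 1.31 to 265 ± 7.10 CPM, and Zfyve9 from 0.381 ± 0.107 to 1.27 ± 0.175 CPM. Egfr, the receptor that Zfyve28 is known to restrain, was not tested, with 48 counts in Control KO and 1 in Carm1 KO. Wdfy3, a scaffold of selective autophagy, fell from 0.887 ± 0.164 to 0.239 ± 0.0401 CPM.

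Of 8 tested BCH-domain genes and partners of Atcay 2 rose and 5 fell, a balance that turned to 4 and 3 with upper-quartile factors. The closest relative Bnipl was not tested, with 11 counts in each group. All 12 F-box and ubiquitin ligase genes listed with Fbxo2 were tested, with 3 rising and 8 falling, or 5 and 6 with upper-quartile factors. Besides Fbxo44 and Fbxo6, Fbxo27, which like Fbxo2 recognises sugars, rose from 1.28 ± 0.158 to 4.07 ± 0.482 CPM, and Fbxo17 fell 1.69-fold. The core subunits Cul1 and Rbx1 fell 1.60-fold and 2.09-fold.

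Markers of CD8 T cells were high in both groups, with a summed level over 9 markers of 4975 to 5088 CPM in Control KO and 6837 to 7052 CPM in Carm1 KO, led by Cd8a and Cd8b1, and 7 of the 9 rose. Of 12 neuron markers 3 were tested, of which Slc17a7 rose, Tubb3 fell and Syp did not pass. Snap25, Gad1, Syt1 and Dcx had no count in any library, and the sum was 3.57 to 4.11 CPM in Control KO and 2.38 to 2.94 CPM in Carm1 KO, mostly from Tubb3 and Slc17a7. Of 8 kidney markers Slc12a1, Umod and Aqp2 had no count, Nphs1 and Slc12a3 did not pass, and the sum was 1.41 to 2.48 and 1.92 to 2.56 CPM. Of 8 photoreceptor markers, led by Sag and Pde6b, the sum was 0.735 to 1.28 and 2.33 to 2.69 CPM, with Crx and Nrl at 1 and 4 counts in Carm1 KO. Of 8 oligodendrocyte markers Olig1, Olig2 and Mog had no count. The sum of 483 to 497 and 425 to 436 CPM was almost all Cnp and Mbp, which other cells also express.

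Markers of other blood cells moved with the contrast. All 8 macrophage markers fell, Lyz2 from 83.1 ± 1.36 to 0.148 ± 0.114 CPM and Mpeg1 from 22.4 ± 1.12 to 2.87 ± 0.379 CPM, and their sum went from 132 to 137 CPM in Control KO to 6.78 to 8.42 CPM in Carm1 KO. All 7 tested neutrophil and mast cell markers, led by Kit and Mpo, fell, with sums of 38.6 to 39.7 and 12.8 to 14.02 CPM. All 4 tested genes listed for natural killer cells, led by Eomes and Klrb1c, fell, with sums of 170 to 181 and 18.3 to 20.7 CPM. Whether this RNA came from natural killer cells or from the T cells themselves was not tested. Of 6 tested erythroid and platelet markers, led by Itga2b and Pf4, 5 fell, with sums of 15.6 to 16.4 and 6.23 to 7.15 CPM. B cell markers summed to 6.96 to 7.30 and 19.3 to 20.6 CPM, where Cd79b and Cd79a rose, Blk did not pass, and Ms4a1 was at 1 count in Carm1 KO. Of 5 markers of CD4 and regulatory T cells, led by Ikzf4 and Zbtb7b, 4 rose, with sums of 38.9 to 41.2 and 51.7 to 54.3 CPM. The part of these cells in the levels of the 10 genes was not tested.

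Of the remaining lists, the melanocyte markers Tyrp1, Tyr, Dct, Slc45a2 and Sox10 had no count in any library. Their list of 9 summed to 13.5 to 14.5 and 16.5 to 17.5 CPM, with Gpnmb falling and Pmel and Mitf rising. Astrocyte markers summed to 56.7 to 58.3 and 136 to 140 CPM, nearly all Aldoc. Fibroblast markers, led by Col1a1 and Col1a2, summed to 1.62 to 2.05 and 1.29 to 1.73 CPM and epithelial ones, led by Epcam and Cdh1, to 5.32 to 6.25 and 11.3 to 12.4 CPM. Endothelial markers summed to 130 to 132 and 132 to 137 CPM, nearly all Pecam1. Vwf fell from 1.88 ± 0.389 to 0.0921 ± 0.0372 CPM and Kdr from 116 counts to 3, while Pecam1 rose by less than the scaling shift. Germ line markers summed to 2.31 to 2.79 and 3.51 to 3.80 CPM, with Piwil2 falling and Ddx4 at 0.0598 ± 0.0247 and 1.46 ± 0.205 CPM. Of 16 tested genes of the REST and CoREST repressor complex, led by Hdac1 and Ehmt2, 7 rose and 7 fell, or 9 and 6 with upper-quartile factors, and Rest, the repressor of neuronal genes, rose 1.11-fold by less than the scaling shift. Of 22 neuronal genes with REST elements, led by Unc13a and Cacna1a, 9 were tested, of which 5 rose and 2 fell. Grin1, a glutamate receptor subunit, rose from 0.0534 ± 0.0586 to 1.76 ± 0.244 CPM, and 5 of the 22, Snap25 among them, had no count in any library.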

How the data were processed

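Each deposited file lists, for 1 library, a whole-number count for every Ensembl gene. RSEM and mm10 are named for these counts in the submitters' processing notes, and per the labels the authors made TruSeq libraries that do not mark strand and read them as 150 bp pairs. Aligner, annotation release, strand setting, versions and how RSEM estimates became whole numbers: not given in the sources used here. How reads common to near-identical genes were assigned can therefore affect single genes. Counts were used as deposited. GENCODE M21 (GRCm38) gave symbols for 49056 of 49315 identifiers. All 10 genes were found.

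Genes kept by filterByExpr (14970) were scaled by TMM and tested with edgeR 4.0.16 (two-sided robust quasi-likelihood F test under R 4.3.3). P-values were adjusted by Benjamini-Hochberg over every tested gene, with a threshold of 0.05. The groups came from the source names, 4 libraries each, at 37556330 to 41439998 counts. For the 10 genes no test was made. Ratios of summed counts have 95% Clopper-Pearson intervals (scipy 1.17.1). Where a group had 0 counts, 3 counts over the group served as its floor. Counts were summed over libraries, so the intervals cover counting error only. They make no allowance for PCR copies, which are not independent molecules.

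The members and all lists were chosen with earlier results of these data known. The text names the 10 genes, Carm1, up to 4 called, at least 2-fold different genes per list of relatives by smallest adjusted p with the closest family member, the nearest and exon-sharing neighbours, the 10 most alike profiles, and the 2 most abundant genes per marker list. Further neighbours, relatives and markers, and the genes just outside the bounds, were named after their values were seen. A few genes that this rule names are not reported here. Alternatives were RLE and upper-quartile factors, library totals, no filter, DESeq2 1.42.0, limma-voom 3.58.1, a floor of 5 CPM in 4 or more libraries, a replicate block, each library left out, and neighbours within 50 or 250 kb.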

Additional observations from a re-analysis of the deposited data

Results flagged for a closer look

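Over the 20 groups of 4 libraries formed by the 10 genes, 2 held a library far from the other 3, and for continuous values chance alone flags about 1 in 20 groups, a rate that need not hold for counts this low. Dnm1 stood at 0.273 CPM (10 counts) in Control KO replicate 4, while the other 3 control libraries held 2 counts each. Gucy2e stood at 0.0273 CPM in the same library, which is 1 count against 0 in the others, and any single count among zeros is picked out in this way. The ratios of both genes without that library are given with their values above. No Carm1 KO library stood apart in this way for any of the 10 genes.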

How the results depend on the processing

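Of 100 counts of called genes under the alternatives, 96 stayed within 1.5 times the main count. In the exceptions fewer or more genes were counted, and for neighbours the balance changed as well. With at least 5 CPM in at least 4 libraries, 39 relatives fell in place of 59. Within 50 kb, 14 neighbours fell (30 rose), and within 250 kb, 84 rose and 62 fell, beside 44 and 25 within 100 kb. Relative to the neighbours that fell, fewer thus rose in the widest window. Shares of all tested neighbours at 50 and 250 kb are not reported here. Without 1 library at a time, 6646 to 6712 of all genes rose and 6474 to 6568 fell, 52 to 58 relatives rose and 57 to 59 fell, and 43 to 50 neighbours rose and 22 to 24 fell. Fitted log2 folds of the 10 genes ran from 4.53 to 10.7 over 160 alternatives, with 0 reversed, 118 within the spread between libraries and 42 beyond it. The genes were chosen for this gap in these same libraries, so that 0 reversed was fixed in advance and carries no support. DESeq2 called 6416 genes higher and 6400 lower, and with no filter 7967 and 7433 were called. Upper-quartile factors, library totals and no filter moved the median log2 fold of all genes by 0.215, 0.160 and 0.204. Replicate numbers pair nothing here: same-numbered libraries deviated together with correlations of -0.0848 to -0.0509. With the replicate block, 6611 genes rose and 6420 fell, 52 relatives rose and 57 fell, and 44 neighbours rose and 22 fell. The low control counts limit every ratio.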
